A study of Mus musculus with 69 samples.

Results

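The expression of 8 genes that mark endoderm, node and notochord, namely Sox17, Foxa1, Foxa2, Gata6, Hhex, Noto, Shh and Chrd, was followed in mosaic gastruloids of wild-type and p53-deficient cells. They were taken by gene symbol from the 55367 rows of the count table, and all 8 were found. The rule names them by symbol alone, and they were chosen with earlier results of these data known. Gastruloids are aggregates of mouse embryonic stem (mES) cells that pass through a model of gastrulation, with a pulse of the Wnt agonist CHIR99021 between 48 and 72 h. Cells of the E14Tg2A line came as 3 clones, each a single clone: WT–mCherry, which expresses an H2B–mCherry label, WT–emiRFP, which expresses H2B–emiRFP670, and p53KO–emiRFP, a subclone of WT–emiRFP with a homozygous +1 frameshift in exon 4 of Trp53. The clones were sequenced as mES cells at 0 h in serum and LIF. Gastruloids were then seeded with 150 WT–mCherry cells and either 150 WT–emiRFP cells (WT + WT) or 25 p53KO–emiRFP cells (WT + p53KO), pooled, and sorted by label with FACS at 48, 72, 96, 120 and 144 h. This gives 23 groups with 3 replicates each, 69 bulk RNA libraries in all. By the methods, 3 separate experiments were made, and the replicate numbers of the labels are taken to mark them.

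In the gastrulating mouse embryo, cells at the anterior end of the primitive streak give rise to the definitive endoderm and to the node, from which the notochord extends. Foxa2 is a forkhead pioneer factor needed for both lineages, Noto is a homeodomain factor of the node and early notochord, and Shh and Chordin (Chrd) are secreted by node and notochord, where Shh patterns the neural tube and gut and Chordin binds and blocks BMP ligands. Sox17, Gata6, Foxa1 and Hhex are transcription factors of the endoderm. Several of them are also used elsewhere: Sox17 and Hhex in endothelial and blood progenitors, Gata6 in heart and lateral plate mesoderm, Foxa2 and Shh in the floor plate, and Sox17, Gata6, Foxa1, Foxa2 and Hhex in the extraembryonic primitive and visceral endoderm. In bulk RNA, fewer cells that express a gene and less RNA of it per cell cannot be told apart.

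RefSeq promoters (GRCm38.p6, 250 bases before to 50 after the start) were at hand for 5 of the 8 members, with 3 starts for Foxa2. They were searched on both strands for TGTTTAC (forkhead), CTTTGA (TCF/LEF, the factors of canonical Wnt signalling), AGATAA (the factors of the GATA family) and ACAATG (SOX factors), which do not overlap in the matches found. The 3 promoters that hold a match are shown. Capitals mark the matches, and each sequence runs 5′ to 3′ on the strand of the gene.
Foxa2, chr2:148045415-148045714, minus strand: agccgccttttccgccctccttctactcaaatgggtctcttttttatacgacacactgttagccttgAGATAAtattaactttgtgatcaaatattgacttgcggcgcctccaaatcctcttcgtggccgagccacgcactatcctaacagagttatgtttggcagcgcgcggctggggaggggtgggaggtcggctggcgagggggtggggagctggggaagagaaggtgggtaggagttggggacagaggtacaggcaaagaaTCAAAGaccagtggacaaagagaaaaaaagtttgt
Noto, chr6:85423636-85423935, plus strand: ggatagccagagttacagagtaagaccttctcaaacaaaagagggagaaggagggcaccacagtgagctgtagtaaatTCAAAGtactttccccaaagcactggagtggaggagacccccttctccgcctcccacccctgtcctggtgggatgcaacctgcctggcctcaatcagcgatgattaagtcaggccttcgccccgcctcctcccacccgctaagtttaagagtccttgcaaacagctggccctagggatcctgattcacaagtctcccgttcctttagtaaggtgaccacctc
Foxa1, chr12:57546062-57546361, minus strand: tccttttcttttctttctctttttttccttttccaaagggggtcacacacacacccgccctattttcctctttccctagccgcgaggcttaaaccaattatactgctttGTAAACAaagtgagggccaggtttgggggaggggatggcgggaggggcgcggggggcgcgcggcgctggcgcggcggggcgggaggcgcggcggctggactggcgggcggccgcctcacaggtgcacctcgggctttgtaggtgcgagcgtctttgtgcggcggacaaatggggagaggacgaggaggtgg
The Foxa2 promoter holds AGATAA 183 bases before the start and CTTTGA, on the other strand (TCAAAG as printed), 15 bases after it. The Noto promoter holds CTTTGA on the other strand 172 bases before its start, and that of Foxa1 holds TGTTTAC on the other strand (GTAAACA as printed) 141 bases before its start. The other 2 starts of Foxa2 and the promoters of Chrd and Hhex hold none of the 4 motifs. Among all 32851 mouse promoters of this length, 3.65% hold TGTTTAC, 16.0% CTTTGA, 11.2% AGATAA and 12.6% ACAATG. A match of this kind is a description of letters and was not tested for binding.

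The libraries held 26722541 to 72981570 counts, with a median of 53098728. Trp53 itself had 1506 to 2589 normalized counts in the 18 p53KO libraries and 13902 to 27511 in the 51 WT libraries. H2bc14, whose counts were high (4934 to 10517) in all emiRFP libraries and 6.20 to 8.21 in WT–mCherry mES cells, gave an estimate of emiRFP-cell RNA in the mCherry sort. It was 0.191% to 2.12% beside WT cells. Beside p53KO cells it was 3.01% to 7.46% at 120 h and 2.39% to 16.9% at 144 h, where replicate 1 was highest. Values below are counts divided by median-of-ratios size factors (normalized counts). Differences are log2 fold changes from edgeR's quasi-likelihood test with Benjamini-Hochberg adjustment over all genes tested, and a gene is called where the adjusted p is under 0.05.

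On GRCm38 (Gencode vM21), Sox17 lies at chr1:4490931-4497354 (minus strand), Foxa1 at chr12:57540628-57546916 (minus strand), Foxa2 at chr2:148042877-148046969 (minus strand), Gata6 at chr18:11052064-11085635 (plus strand), Hhex at chr19:37434810-37440731 (plus strand), Noto at chr6:85423886-85428877 (plus strand), Shh at chr5:28456815-28467256 (minus strand) and Chrd at chr16:20733127-20742384 (plus strand). All are protein-coding, and counts are read totals over exons. Chrd shares 239 exonic bases with Thpo on the opposite strand. Which strand the counting used is not given in the sources used here, so reads of these shared bases cannot be assigned between the 2 genes. Thpo had at most 204 counts in a library. The genes on the opposite strand of Sox17 and Shh that are in the table, Gm37587 and 9530036O11Rik, had at most 2 and 5.

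**Figure D1:**
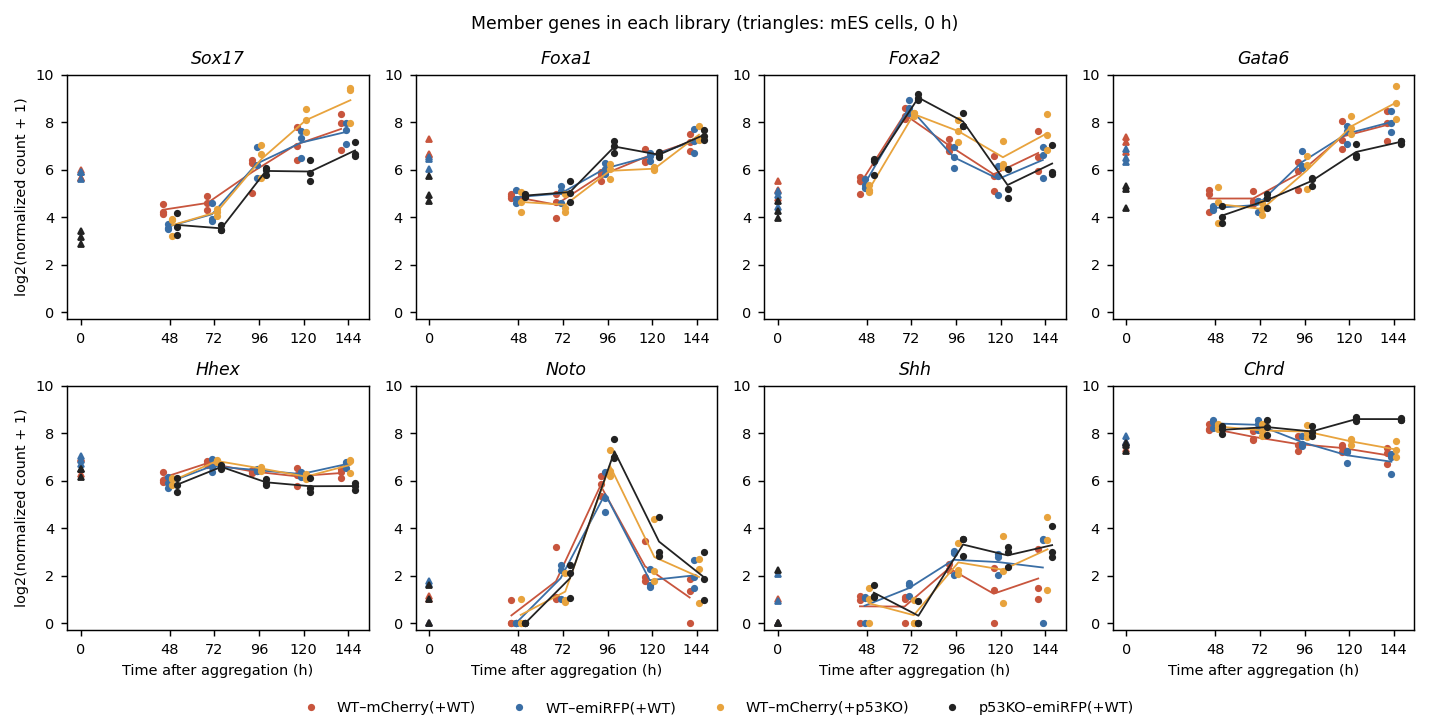
Each panel plots log2(normalized count + 1) of a gene against time after aggregation in hours, with a point per library and a line through the mean of 3 libraries of each sorted population, and triangles for mES cells. Foxa2 is highest at 72 h and Noto at 96 h, Sox17, Gata6 and Foxa1 rise from 72 h to 144 h, and Chrd of p53KO–emiRFP cells (black) separates from the other populations at 120 and 144 h.

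To compare levels between genes, normalized counts were divided by exon length in kb (mean ± SD over 9 WT libraries a time, of 3 populations). In WT cells at 72 h Foxa2 was the highest member with 147 ± 26.2 normalized counts per kb, before Chrd with 44.4 ± 8.94 and Hhex with 20.8 ± 2.34, and these 3 levels did not overlap between libraries. Foxa1, Sox17, Gata6, Noto and Shh followed at 7.71 down to 0.332 normalized counts per kb, and each of them overlapped the next. At 96 h the order was Foxa2 (59.7), Noto (43.2) and Chrd (34.8 normalized counts per kb), which overlapped. At 144 h Sox17 was highest in this pooled mean with 66.8 ± 44.0. Foxa2, Gata6 and Foxa1 followed with 57.6, 51.1 and 47.7 normalized counts per kb, and neighbours in this order overlapped. By population, Sox17 led only in WT–mCherry cells beside p53KO cells, with a mean of 111 normalized counts per kb. In WT–mCherry cells beside WT cells Foxa2 had 49.2 and Sox17 47.9. In WT–emiRFP cells Foxa1 had 45.9 and Sox17 41.1. Shh stayed at or under 2.50 normalized counts per kb in the mean of WT cells at every time. In p53KO–emiRFP cells at 144 h the order of levels was Chrd (61.3), Foxa1 (52.8), Foxa2 (34.4), Sox17 (23.6) and Gata6 (21.9 normalized counts per kb), each overlapping the next over 3 libraries.

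**Figure D2:**
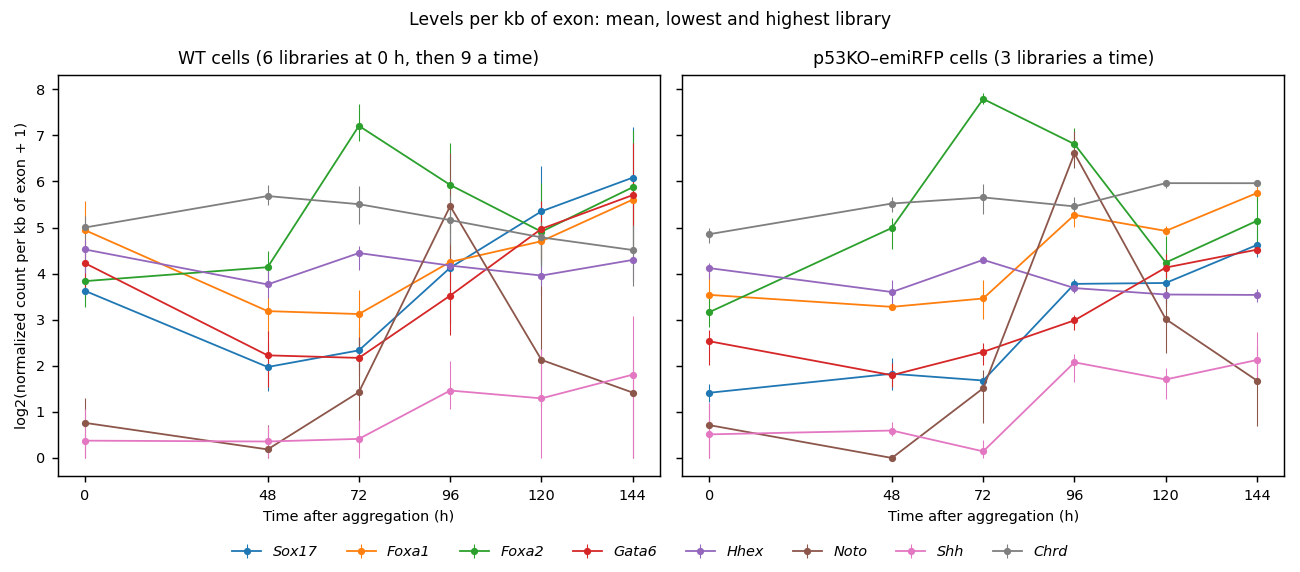
The lines give log2(normalized count per kb of exon + 1) of the 8 genes against time in hours, as the mean over WT libraries (left) and p53KO–emiRFP libraries (right), with bars from the lowest to the highest library. Foxa2 leads at 72 h in both genotypes, and Chrd leads at 144 h in p53KO–emiRFP cells. Sox17 leads at 144 h in the mean pooled over WT populations. Taken singly, neither population of WT + WT gastruloids has Sox17 as its highest member at that time.

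The time course asks when each lineage marker starts and ends. Consecutive times were compared in 1 fit of all 69 libraries, with WT cells as the mean of the 3 sorted WT populations (of 2 clones at 0 h). This mean pools WT cells beside WT cells with those beside p53KO cells, and 2 of the populations come from the same gastruloids. Libraries with the same replicate number also moved together, so the WT libraries of a time are not independent samples. The fit without a block for the replicate number treats them as such, and its p values may be too small. In WT cells 29 of 40 tests of the members were called, against 70.3%, 66.9%, 58.6%, 56.8% and 55.4% of all genes tested in the 5 intervals from 0 to 144 h. In p53KO–emiRFP cells, with fewer libraries, it was 16 of 40, against 59.5%, 46.4%, 44.5%, 34.9% and 22.7%. With the replicate block it was 30 in WT cells, against 72.3%, 69.4%, 61.6%, 60.9% and 58.9% of all genes, and 21 in p53KO–emiRFP cells, against 62.5%, 50.3%, 48.2%, 39.6% and 27.2% of all genes. Among the calls added by the block, given as log2 fold changes, were Chrd from 48 to 72 h in WT cells −0.19 (SE 0.10, edgeR adjusted p = 0.0843, 0.0412 with the replicate block), and in p53KO–emiRFP cells Noto from 48 to 72 h 4.70 (SE 2.11, edgeR adjusted p = 0.0627, 0.0162 with the replicate block), also called by DESeq2 (0.0172), and Gata6 from 72 to 96 h 0.82 (SE 0.42, edgeR adjusted p = 0.107, 0.0421 with the replicate block). From 72 to 96 h all 8 members changed in WT cells, 5 up and 3 down.

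Foxa2 peaked at 72 h, at the end of the CHIR99021 pulse. Its lowest, median and highest value over 9 WT libraries was 30.3, 39.2 and 50.5 normalized counts at 48 h and 276, 333 and 482 at 72 h, with no overlap and a log2 fold change of 3.14 (SE 0.22, edgeR adjusted p = 1.1e-18). It then fell by 1.36 to 96 h and by 1.03 to 120 h on the log2 scale, and rose by 0.96 to 144 h (edgeR adjusted p = 1.4e-08, 4.0e-05 and 1.2e-04). In p53KO–emiRFP cells Foxa2 had risen by 48 h, from 14.5, 17.8 and 24.3 to 52.8, 80.8 and 85.6 normalized counts, 1.97 (SE 0.49, edgeR adjusted p = 4.4e-04), and reached 573, 512 and 480.5 at 72 h. Between 96 and 120 h it fell there from 228, 334 and 229 to 35.8, 64.3 and 27.1, −2.61 (SE 0.38, edgeR adjusted p = 8.9e-08).

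Noto was nearly silent in mES cells and at 48 h, with 0 to 3 counts in each of 21 libraries. At 72 h the 12 libraries held 1 to 8 counts, a step that was called in WT cells (edgeR adjusted p = 0.00861) but not without replicate 1 (0.0714) or 3 (0.134). At 96 h the lowest, median and highest of 9 WT libraries was 24.7, 71.5 and 155 normalized counts, and p53KO–emiRFP libraries held 125, 216 and 123. From 72 to 96 h the log2 fold change was 4.61 (SE 0.37, edgeR adjusted p = 4.9e-16) in WT cells and 5.59 (SE 0.57, edgeR adjusted p = 5.7e-12) in p53KO–emiRFP cells. To 120 h the log2 fold change of Noto was −3.73 in WT and −3.72 in p53KO–emiRFP cells, and WT libraries held 1.85, 2.81 and 19.7 normalized counts (lowest, median, highest). The peak of Noto was thus seen at a single time point, 96 h, in every population.

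Shh had 0 to 3 counts in each library up to 72 h, and from 96 h on at most 22. Its step from 72 to 96 h was called in WT cells (edgeR adjusted p = 0.00125), from a sum of 8 to a sum of 46 counts over 9 libraries. In p53KO–emiRFP cells it was called (0.0017) from 1 count in 3 libraries to 14, 10 and 7 counts, and lost without replicate 1 (0.0545). No later step of Shh was called in either genotype, except in WT cells from 120 to 144 h without replicate 3 (0.0351).

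In WT cells the endoderm factors Sox17, Gata6 and Foxa1 had a like course. All 3 were present in mES cells, were lower at 48 h, and rose from 72 h on. Sox17 fell by 1.97 from 0 to 48 h on the log2 scale, then rose by 2.02 (SE 0.27, edgeR adjusted p = 2.1e-09) from 72 to 96 h, by 1.22 to 120 h and by 0.68 to 144 h. The lowest, median and highest WT library of Sox17 was 8.26, 13.5 and 22.7 normalized counts at 48 h and 111, 249 and 693 at 144 h. Gata6 fell by 2.22 from 0 to 48 h, then rose by 1.56, 1.54 and 0.69 in the last 3 intervals, from 15.7, 23.2 and 33.7 normalized counts at 72 h to 145, 282 and 734 at 144 h. Foxa1 fell by 1.87 and then rose by 1.23, 0.45 and 0.94. All these steps were called. The last step of Sox17 was not called without replicate 1 (edgeR adjusted p = 0.0912), nor was the step of Foxa1 from 96 to 120 h (0.0916). In p53KO–emiRFP cells the 3 genes differed in which steps were called. Sox17 had log2 fold changes of 0.63 from 0 to 48 h, not called, 2.50 (SE 0.52, edgeR adjusted p = 6.3e-05) from 72 to 96 h and 0.04 (SE 0.39, edgeR adjusted p = 0.961) from 96 to 120 h. Foxa1 had −0.26, not called, 1.91 (SE 0.26, edgeR adjusted p = 1.2e-08) and −0.35 (SE 0.23, edgeR adjusted p = 0.242) in these intervals, and 0.84 (SE 0.22, edgeR adjusted p = 0.00355) from 120 to 144 h. Gata6 had −0.95, not called, from 0 to 48 h, which DESeq2 (0.0459) and the edgeR fit without replicate 2 (0.0266) did call. It rose from 96 to 120 h, 1.25 (SE 0.34, edgeR adjusted p = 0.00309), a call lost without replicate 2 (0.0527).

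Hhex moved little. Over 9 WT libraries its lowest, median and highest value was 50.6, 64.3 and 81.7 normalized counts at 48 h. At 72 h these were 80.7, 110.3 and 118, and at 144 h 67.0, 92.2 and 114 normalized counts. The gene fell by 0.82 from 0 to 48 h, rose by 0.72 to 72 h, fell by 0.28 and 0.23 in the next 2 intervals and rose by 0.35 to 144 h, all called. The fall from 96 to 120 h was lost without any 1 replicate and with TMM normalization (0.0524), and without replicate 1 those from 72 to 96 h (0.142) and from 120 to 144 h (0.0583) were lost too. Chrd, with 275, 315 and 372 normalized counts (lowest, median, highest) at 48 h and 76.5, 139 and 203 at 144 h, rose by 0.69 from 0 to 48 h and fell by 0.36, 0.39 and 0.28 in the 3 intervals after 72 h. The last 2 of these falls depended on single replicates: without replicate 2 the edgeR adjusted p was 0.129 and 0.0663, and without replicate 3 it was 0.25 for the last. In p53KO–emiRFP cells Chrd instead rose by 0.52 (SE 0.17, edgeR adjusted p = 0.0137) from 96 to 120 h, a call lost without replicate 1 (0.0962) or replicate 3 (0.0578).

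In mES cells, before gastruloids form, Sox17, Gata6 and Foxa1 were lower in p53KO–emiRFP cells than in their parent clone WT–emiRFP. A single subclone was compared with its parent, here and in gastruloids, so loss of p53 and other differences between the clones cannot be told apart. Of 6 tested members 3 were called, all lower, against 6.13% of all genes; Noto and Shh had too few counts for the test at 0, 48 and 72 h. Sox17 had 6.22, 7.92 and 9.71 normalized counts in p53KO–emiRFP, 57.7, 48.1 and 58.4 in WT–emiRFP and 49.1, 49.3 and 62.0 in WT–mCherry mES cells. The groups did not overlap, and the log2 fold change to WT–emiRFP was −2.78 (SE 0.27, edgeR adjusted p = 4.3e-05). Gata6 had 38.4, 19.8 and 35.2 against 78.3, 87.8 and 116 normalized counts, −1.60 (SE 0.27, edgeR adjusted p = 0.0031). Foxa1 had 29.0, 24.8 and 52.2 against 90.9, 63.7 and 86.2, −1.21 (SE 0.29, edgeR adjusted p = 0.0265). Without replicate 2 the calls of Gata6 (edgeR adjusted p = 0.0553) and Foxa1 (0.216) were lost. Foxa2, Hhex and Chrd had log2 fold changes of −0.57, −0.50 and −0.24 and were not called. Of 18 visceral and primitive endoderm markers (16 tested), 0 were higher and 7 lower in p53KO–emiRFP than in WT–emiRFP mES cultures (9 lower with the replicate block, where 9.82% of all genes were called), with a median log2 fold change of −0.55 against −0.01 over all genes. Their summed normalized counts were 21660 to 24340 in p53KO–emiRFP, 29600 to 30520 in WT–emiRFP and 34120 to 38180 in WT–mCherry mES cells, with Ttr at 0 in all libraries of both WT clones. Between the WT clones, 0 of these markers were higher and 6 lower in WT–emiRFP. Their part in the differences of Sox17, Gata6 and Foxa1 was not tested.

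In gastruloids some members were higher and others lower in p53KO–emiRFP than in WT–emiRFP libraries. From 0 to 144 h, the 3 lower calls in mES cells included, 15 of 40 tests of members were called, 7 higher and 8 lower, and 21 with the replicate number as a block. Foxa2, Noto and Foxa1 were higher at 96 h, Chrd was higher at 120 and 144 h, and Sox17, Gata6 and Hhex were lower at 1 or more times from 96 h on. The shares of all genes called were 22.0%, 29.1%, 23.3%, 51.0% and 65.3% at 48, 72, 96, 120 and 144 h, and with the block 9.82%, 41.1%, 39.0%, 38.6%, 61.7% and 70.5% from 0 to 144 h. Of the members, 1 of 6, 1 of 6, 4 of 8, 3 of 7 and 3 of 7 were called, which is under the share of all genes at 48, 72, 120 and 144 h. Shh was not tested at 120 h and Noto not at 144 h. The median log2 fold change of the tested members was 0.56 at 96 h, −0.24 at 120 h and −0.13 at 144 h, against −0.01, 0.05 and 0.01 over all genes.

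**Figure D3:**
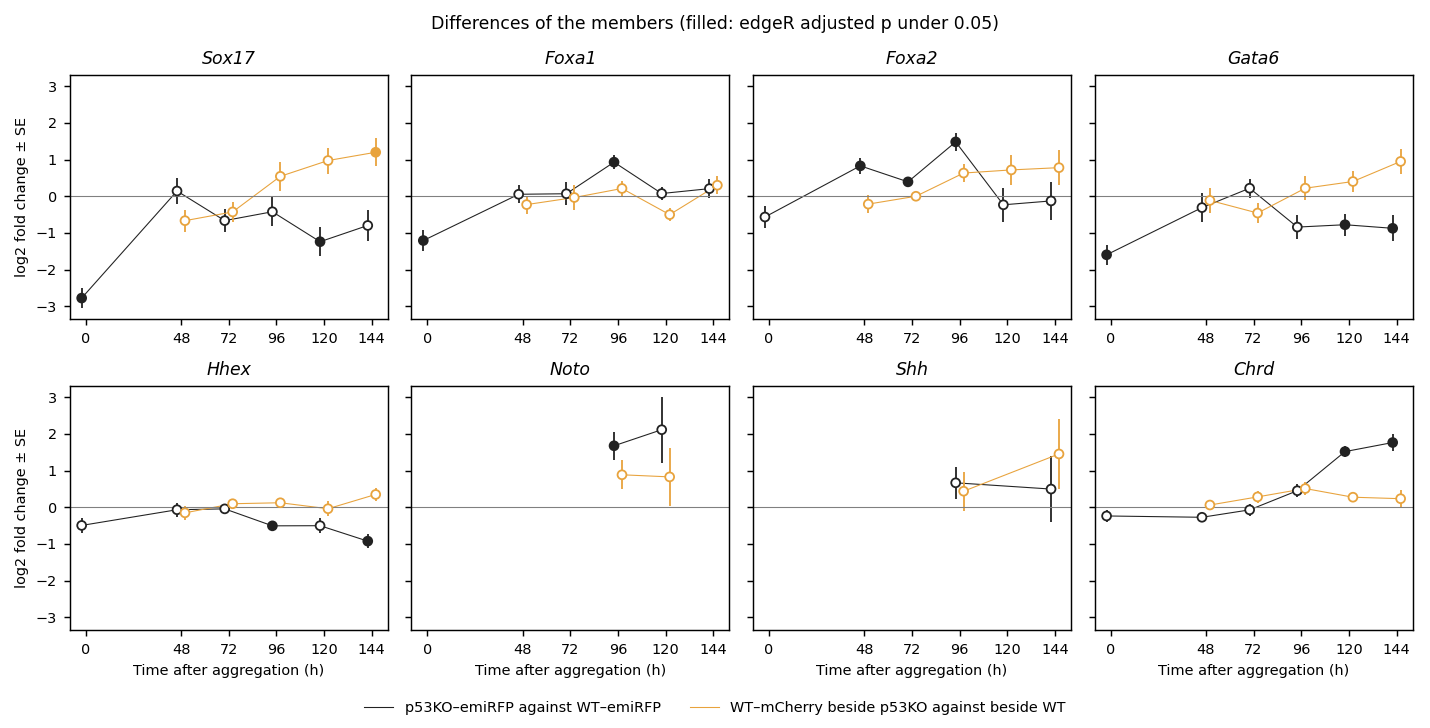
Points are log2 fold changes with standard errors against time in hours, for p53KO–emiRFP against WT–emiRFP cells (black) and for WT–mCherry cells sorted from WT + p53KO against WT + WT gastruloids (orange), filled where the edgeR adjusted p is under 0.05. From 120 h on Sox17 and Gata6 lie below 0 in black and above 0 in orange, and Chrd in black reaches 1.76 at 144 h.

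Foxa2 was higher in p53KO–emiRFP cells at each of the first 3 times. At 48 h it had 52.8, 80.8 and 85.6 against 36.5, 47.5 and 39.2 normalized counts in WT–emiRFP cells, without overlap, 0.83 (SE 0.22, edgeR adjusted p = 0.0144). At 72 h it had 573, 512 and 480.5 against 482, 382 and 333, which overlap, 0.39 (SE 0.14, edgeR adjusted p = 0.0455). At 96 h the values were 228, 334 and 229 against 90.7, 123 and 66.9, a mean of 263 ± 61.3 against 93.5 ± 28.2 (SD, n = 3 each), 1.48 (SE 0.25, edgeR adjusted p = 5.7e-04). The difference of 96 h is the one that kept its call without each replicate. The call at 72 h was lost without any replicate, with TMM (0.0536) and in the fit of all 23 groups (0.411), and that at 48 h in the latter fit (0.218) and without replicates 2 (0.0663) or 3 (0.154). At 120 and 144 h the log2 fold changes of Foxa2 were −0.24 and −0.13, neither called.

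Noto at 96 h had 125, 216 and 123 normalized counts in p53KO–emiRFP and 37.3, 81.0 and 24.7 in WT–emiRFP cells. All p53KO–emiRFP libraries lay above all WT–emiRFP libraries, and the log2 fold change was 1.67 (SE 0.38, edgeR adjusted p = 0.00547); without replicate 1 it was 1.66 with an edgeR adjusted p of 0.113. At 120 h, near the end of its expression, Noto had 6, 23 and 7 counts against 2, 4 and 2, 2.11 (SE 0.90, edgeR adjusted p = 0.0653, 0.00124 with the replicate block). Foxa1, which opens chromatin in endoderm like Foxa2, had 104, 127 and 146 against 64.0, 77.2 and 55.6 normalized counts at 96 h, 0.93 (SE 0.19, edgeR adjusted p = 0.00219). At 120 and 144 h its log2 fold changes were 0.07 and 0.21, not called. Shh at 96 h had 14, 10 and 7 counts in p53KO–emiRFP and 8, 7 and 3 in WT–emiRFP cells, 0.66 (SE 0.43, edgeR adjusted p = 0.306) and was not called.

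Chrd, the BMP antagonist, was the member with the largest called difference at 120 and 144 h. It had 391, 402 and 358 normalized counts in p53KO–emiRFP and 146, 151 and 106 in WT–emiRFP cells at 120 h, 1.52 (SE 0.14, edgeR adjusted p = 7.6e-07). At 144 h it had 376, 375 and 399.6 against 139, 124 and 76.5, a mean of 384 ± 13.9 against 113 ± 32.7 (SD, n = 3 each), 1.76 (SE 0.22, edgeR adjusted p = 9.2e-06). The groups did not overlap at either time, the 3 same-numbered pairs gave ratios of 2.66 to 3.37 and 2.71 to 5.22, and no alternative ended these calls. At 96 h Chrd was 0.45 (SE 0.18, edgeR adjusted p = 0.0828, 5.7e-04 with the replicate block), and at 48 h −0.28 (SE 0.11, edgeR adjusted p = 0.0955, 0.00673 with the replicate block). Thpo, the gene that shares exonic bases with Chrd, had group means of at most 100.2 normalized counts.

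Sox17 in p53KO–emiRFP cells was below that of WT–emiRFP cells in all 3 pairs at 120 h and at 144 h, with ratios of 0.356 to 0.503 and 0.460 to 0.744. At 120 h the log2 fold change was −1.24 (SE 0.40, edgeR adjusted p = 0.0179), and without replicate 1 the adjusted p was 0.177. At 144 h it had 93.9, 143 and 101 against 204, 249 and 136 normalized counts, where the groups overlap, −0.80 (SE 0.42, edgeR adjusted p = 0.107, 0.00317 with the replicate block). Gata6 had 98.1, 134 and 90.3 against 195, 226 and 135 at 120 h, −0.78 (SE 0.30, edgeR adjusted p = 0.043), and 148, 146 and 134 against 250.0, 347 and 192 at 144 h, −0.88 (SE 0.35, edgeR adjusted p = 0.0415). The Gata6 groups did not overlap at 96, 120 or 144 h. At 96 h the difference was −0.84 (SE 0.33, edgeR adjusted p = 0.0817, 0.00322 with the replicate block). Without replicate 1 the calls of Gata6 were lost at 120 h (0.266) and 144 h (0.165), and at 144 h also without replicate 2 (0.0763) and with DESeq2 (0.0701).

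Hhex, an early marker of anterior endoderm and of blood and endothelial progenitors, was lower in p53KO–emiRFP cells from 96 h on. It had 66.9, 55.4 and 57.8 against 84.5, 88.7 and 84.4 normalized counts at 96 h, −0.51 (SE 0.13, edgeR adjusted p = 0.0101), a call lost without replicate 2 (0.133) or 3 (0.0789). At 120 h it was −0.51 (SE 0.21, edgeR adjusted p = 0.0569, 0.0426 with the replicate block). At 144 h it had 54.3, 59.1 and 47.5 against 104, 109.8 and 92.2, with ratios of 0.516 to 0.538 in the 3 pairs, −0.93 (SE 0.19, edgeR adjusted p = 5.6e-04). That last call held in every alternative.

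**Figure D4:**
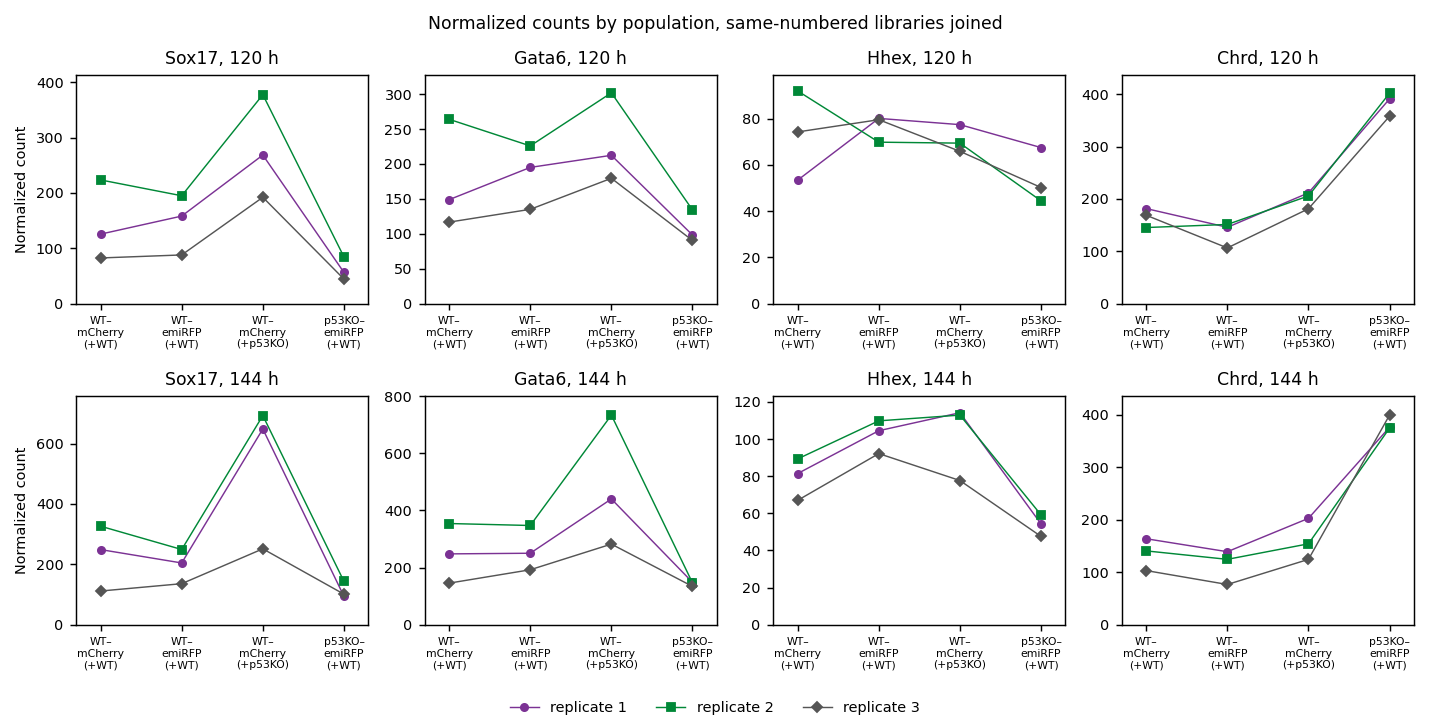
Normalized counts of Sox17, Gata6, Hhex and Chrd at 120 h (top) and 144 h (bottom) are plotted for the 4 sorted populations, with a line joining the libraries of one replicate number. Sox17 and Gata6 peak in WT–mCherry cells beside p53KO cells and are lowest in p53KO–emiRFP cells in all 3 replicates, while Chrd is highest in p53KO–emiRFP cells in all 3.

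The comparison of WT–mCherry cells beside p53KO cells with those beside WT cells asks whether p53KO neighbours act on the expression of WT cells of one clone. From 96 h on the log2 fold changes of Sox17 and Gata6 were above 0 here and below 0 between p53KO–emiRFP and WT–emiRFP cells, though not all of them were called. Of 34 tests of members 1 was called without the block, Sox17 at 144 h. At 48, 72, 96 and 120 h edgeR and DESeq2 called 0 members, and 1, 0, 3 and 2 had an unadjusted p under 0.05. At 144 h it was 1 of 7, against 25.5% of all genes; at the earlier times the share of all genes was 0.0735%, 0.559%, 3.93% and 5.95%. With the replicate number as a block 3 of 8 members were called at 96 h and 4 of 7 at 144 h, all higher beside p53KO cells, against 20.9% and 37.2% of all genes under the block (4.91%, 2.27% and 20.3% at 48, 72 and 120 h). The median log2 fold change of the tested members was 0.47, 0.40 and 0.78 at 96, 120 and 144 h, against 0.00, −0.01 and −0.03 over all genes.

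Sox17 at 144 h had 648, 693 and 251 normalized counts in replicates 1 to 3 beside p53KO cells and 249, 326 and 111 beside WT cells. The groups overlapped, since replicate 3 was low in both, but each pair was higher beside p53KO cells, with ratios of 2.12 to 2.61. The means were 531 ± 243 and 229 ± 109 (SD, n = 3 each), and the log2 fold change was 1.20 (SE 0.38, edgeR adjusted p = 0.0346), with 1.3e-04 under the replicate block. Without replicate 1 (0.229) or replicate 2 (0.0843) the call was lost. At 120 h Sox17 had 268, 378 and 192 against 125, 223 and 82.4, with pair ratios of 1.69 to 2.33, 0.97 (SE 0.35, edgeR adjusted p = 0.132).

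Gata6 at 144 h had 440.1, 734 and 282 against 248, 354 and 145 normalized counts, with pair ratios of 1.78 to 2.07, 0.95 (SE 0.33, edgeR adjusted p = 0.051, 3.5e-04 with the replicate block). TMM normalization (0.0489), the fit of all 23 groups (0.00828), the fit without replicate 3 (0.0335) and subtraction of emiRFP RNA (0.0257) each put it past the threshold. Foxa2 at 144 h had 173, 327 and 111 against 91.1, 199 and 59.8, with ratios of 1.65 to 1.90, 0.78 (SE 0.47, edgeR adjusted p = 0.251, 0.00136 with the replicate block). Shh at 144 h had 11, 22 and 2 counts beside p53KO and 2, 10 and 1 beside WT cells, 1.45 (SE 0.95, edgeR adjusted p = 0.291, 0.0471 with the replicate block). All 8 members had higher values beside p53KO cells in 3 of 3 pairs at 144 h, and for each of them the 2 groups overlapped. How many of all genes did so was not counted, so this is no result about the members. Noto, with 1 to 6 counts beside p53KO and 0 to 3 beside WT cells, was not tested, and the difference of Chrd was not kept with emiRFP RNA subtracted. Replicate 3 was the lowest on both sides for Sox17, Gata6 and Foxa2.

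At 96 h the 3 genes that passed with the block were Noto, Foxa2 and Chrd. Noto had 83.7, 155 and 72.9 beside p53KO and 57.2, 71.5 and 39.2 normalized counts beside WT cells, without overlap, 0.88 (SE 0.39, edgeR adjusted p = 0.228, 6.8e-04 with the replicate block). Foxa2 had 195, 268 and 142 against 125, 153 and 110.4, 0.63 (SE 0.25, edgeR adjusted p = 0.171, 5.1e-04 with the replicate block). Chrd had 258, 322 and 225 against 151, 232 and 179.7, 0.51 (SE 0.18, edgeR adjusted p = 0.128, 8.7e-04 with the replicate block). All 3 were higher in 3 of 3 pairs. Foxa1 was low beside p53KO cells at 120 h, with 63.2, 68.6 and 62.2 against 81.4, 117 and 78.3 normalized counts that do not overlap, but the difference of −0.50 (SE 0.17, edgeR adjusted p = 0.101) was not called. Chrd and Hhex were not called at 120 or 144 h, with log2 fold changes of 0.23 and 0.35 at 144 h.

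The share of emiRFP-cell RNA in the mCherry sort at 144 h is given above, and at that time p53KO–emiRFP libraries held less Sox17, Gata6 and Hhex and more Chrd than the WT–mCherry libraries beside them. With this RNA subtracted, the log2 fold change at 144 h was 1.32 for Sox17 (edgeR adjusted p = 0.0184), 1.04 for Gata6 (0.0257), 0.86 for Foxa2 (0.176) and 0.01 for Chrd (0.991).

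The comparison of WT–emiRFP with WT–mCherry cells, as mES cell cultures at 0 h and from the same WT + WT gastruloids later, gives the background of clone against clone. No member was called by edgeR in 40 tests, of which 4 had an unadjusted p under 0.05, and DESeq2 called 1, Chrd at 72 h (0.0426). The shares of all genes called were 11.1%, 8.89%, 7.64%, 2.15%, 1.24% and 23.8% from 0 to 144 h, and 17.3%, 28.8%, 16.2%, 16.0%, 10.8% and 33.9% with the replicate block. Under the block Foxa2 was called at 96 h, −0.47 (SE 0.26, edgeR adjusted p = 0.416, 0.0143 with the replicate block), and Hhex at 144 h, 0.36 (SE 0.18, edgeR adjusted p = 0.17, 0.0463 with the replicate block). At 144 h the log2 fold changes of Sox17, Gata6 and Chrd between the clones were −0.24, 0.06 and −0.27.

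Whether p53KO–emiRFP cells and their WT–mCherry neighbours differed in their shift was tested as the emiRFP minus mCherry difference in WT + p53KO gastruloids less the same difference in WT + WT gastruloids. Of 34 tests of members 8 were called, 2 higher and 6 lower, and 18 with the block; at 48 and 72 h edgeR and DESeq2 called 0, and 1 and 0 had an unadjusted p under 0.05. Shares of all genes called were 10.9%, 20.5%, 13.0%, 33.2% and 62.0%, and 31.0%, 31.4%, 28.7%, 48.5% and 67.9% with the block. At 144 h the difference was −1.997 (SE 0.56, edgeR adjusted p = 0.00712) for Sox17, −1.82 (SE 0.48, edgeR adjusted p = 0.00477) for Gata6, −1.27 (SE 0.26, edgeR adjusted p = 6.7e-04) for Hhex and 1.53 (SE 0.32, edgeR adjusted p = 8.0e-04) for Chrd. At 120 h it was −2.21 (SE 0.53, edgeR adjusted p = 0.0058) for Sox17, −1.18 (SE 0.41, edgeR adjusted p = 0.0411) for Gata6 and 1.24 (SE 0.20, edgeR adjusted p = 2.9e-04) for Chrd. Without replicate 1 the calls of Sox17 (0.135 at 120 h, 0.108 at 144 h) and Gata6 (0.303 and 0.0518) were lost, and at 120 h that of Gata6 also without replicate 3 (0.064). Those of Chrd at both times and of Hhex at 144 h held without each replicate. At 96 h Hhex was −0.63 (SE 0.18, edgeR adjusted p = 0.0323), a call lost without any replicate, with DESeq2 (0.107) and in the fit of all 23 groups (0.0895). With the block, Sox17 −0.97 (SE 0.55, edgeR adjusted p = 0.298, 0.044 with the replicate block), Foxa2 0.85 (SE 0.35, edgeR adjusted p = 0.137, 3.2e-04 with the replicate block), Noto 0.79 (SE 0.55, edgeR adjusted p = 0.409, 0.0107 with the replicate block), Foxa1 0.72 (SE 0.28, edgeR adjusted p = 0.116, 0.0226 with the replicate block) and Gata6 −1.06 (SE 0.47, edgeR adjusted p = 0.168, 0.013 with the replicate block) were also called at 96 h, Gata6 without replicate 3 too (0.0438). So were, with the block, Foxa2 1.04 (SE 0.33, edgeR adjusted p = 0.0512, 0.0113 with the replicate block) and Chrd −0.33 (SE 0.16, edgeR adjusted p = 0.203, 0.0226 with the replicate block) at 48 h and Foxa2 −0.91 (SE 0.70, edgeR adjusted p = 0.273, 0.00286 with the replicate block) at 144 h.

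Libraries of one replicate number moved together in these genes. At 120 h replicate 2 was the highest and replicate 3 the lowest in all 4 populations for Sox17, Foxa1, Foxa2 and Gata6. At 144 h replicate 2 was highest in all 4 populations for Sox17, Foxa1, Foxa2 and Shh and in 3 of 4 for Gata6 and Hhex, and replicate 3 was lowest in all 4 for Gata6, Hhex, Noto, Shh and in 3 of 4 for Sox17 and Foxa2. Chrd did not follow this order: at 144 h replicate 1 was highest in 3 of 4 populations. The spread is large for Foxa2, whose 3 WT–mCherry(+WT) libraries at 144 h held 91.1, 199 and 59.8 normalized counts.

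Over the 20 gastruloid groups, the profile of Sox17 (log2 of the group mean + 1) was closest to that of Gata6, another member, with a Pearson r of 0.971 across groups, out of 15568 genes with a group mean of at least 50 normalized counts in some group. These r describe 20 groups that share time points and libraries and carry no test. The next genes for Sox17 were Fhit and Tnnt2, the latter a troponin of heart muscle (0.968 and 0.966). For Gata6 they were Pygl (0.977), Fcho2 (0.976), Gm7789 (0.975), for Foxa1 Fhod1 (0.966), Caprin2 (0.960), Fat4 (0.954), for Foxa2 Pou6f1 (0.932), Smyd2 (0.929), Atp6v0a1 (0.912) and for Hhex Mpc1 (0.923), Grn (0.917), Apod (0.917). For Noto they were Kcnf1 (0.967), A930007I19Rik (0.959), Olfm1 (0.959), for Shh Acy3 (0.948), Kcnj12 (0.936), Rsph9 (0.933) and for Chrd Tbkbp1 (0.939), Thpo (0.932), Zfp512 (0.925). Thpo, second for Chrd, shares exonic bases with it. Among the members, Foxa1 had r of 0.869 with Sox17 and 0.881 with Gata6, Shh 0.882 with Foxa1, and Chrd −0.688 with Sox17, while Foxa2 had −0.0833 with Sox17 and 0.312 with Noto.

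Other genes of these tissues and pathways were counted from 8 lists that do not contain the members. Genes named below are the up to 2 largest rises and falls among called genes whose mean log2 CPM reached 1, and the number after a name is the log2 fold change. In p53KO–emiRFP against WT–emiRFP cells, 51.0% of all genes were called at 120 h and 65.3% at 144 h, with medians of 0.05 and 0.01 over all genes. In the neighbour comparison it was 5.95% and 25.5%, with medians of −0.01 and −0.03.

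Of 25 definitive endoderm and gut genes, 7 were higher and 7 lower at 120 h (median −0.07) and 7 were higher and 13 lower at 144 h (median −0.64) in p53KO–emiRFP cells, of 22 and 23 tested. These included at 120 h rises of Mixl1 (3.21) and Lhx1 (1.66), and falls of Eomes (−2.73) and Sox2 (−1.27); at 144 h rises of Cer1 (5.93) and Lhx1 (2.32), and falls of Ihh (−2.43) and Eomes (−2.21). Eomes and Mixl1 are streak and endoderm factors, Lhx1 a factor of axial and other mesoderm, Cer1 a secreted antagonist, and Sox2 is also a neural factor. Of 18 node and notochord genes (16 tested), 7 were higher and 4 lower at 120 h (median 0.33) and 10 were higher and 3 lower at 144 h (median 0.78). Called at 120 h were rises of T (2.79) and Mnx1 (2.21), and falls of Nodal (−1.78) and Tekt1 (−0.84); at 144 h rises of Cdx2 (4.54) and T (4.37), and falls of Nodal (−2.54) and Tekt1 (−1.53). T (Brachyury) and Cdx2 are also genes of the tail bud and of caudal progenitors.

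Of 11 BMP antagonists, ligands and Chordin proteases, all tested, 6 were higher and 2 lower at 120 h (median 0.57) and 8 were higher and 2 lower at 144 h (median 0.89) in p53KO–emiRFP cells, where Chrd itself was higher. Among them at 120 h were rises of Tll2 (2.97) and Bmp2 (1.24), and a fall of Bmp4 (−0.54); at 144 h rises of Cer1 (5.93) and Bmp2 (2.11), and a fall of Bmp4 (−1.06). Tll2 is a relative of the protease Tolloid that cleaves Chordin. Of 17 hedgehog pathway genes (16 tested), 6 were higher and 5 lower at 120 h (median −0.10) and 10 were higher and 5 lower at 144 h (median 0.70). The named changes at 120 h were rises of Smo (0.94) and Hhat (0.73), and a fall of Gli2 (−0.57); at 144 h rises of Gas1 (2.05) and Scube2 (1.93), and falls of Hhip (−2.47) and Ihh (−2.43). Smo is the signal transducer and Hhip an inhibitor that binds hedgehog proteins. Of 9 floor plate genes (6 tested), 1 was higher and 1 lower at 120 h (median 0.18) and 3 were higher and 2 lower at 144 h (median 0.69). At 120 h it was a rise of Slit1 (0.30); at 144 h rises of Ntn1 (1.78) and Spon1 (1.50), and a fall of Lmx1b (−0.61).

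Sox17, Gata6 and Hhex are also used by other cell types, whose markers were counted in the same way. Of 18 visceral and primitive endoderm genes (17 tested), 4 were higher and 8 lower at 120 h (median −0.98) and 1 was higher and 8 lower at 144 h (median −0.69) in p53KO–emiRFP cells. These included at 120 h rises of Rbp4 (1.04) and Lama1 (0.87), and falls of Cubn (−3.96) and Srgn (−3.77); at 144 h a rise of Pdgfra (1.87), and falls of Cubn (−3.68) and Srgn (−3.50). Cubn encodes cubilin, an uptake receptor of visceral endoderm, and Ttr and Afp had 0 counts in the 3 p53KO–emiRFP libraries at 120 h. Summed over the list, normalized counts were 46030 to 51590 in p53KO–emiRFP and 33090 to 59720 in WT–emiRFP cells at 144 h. Of 15 endothelial and blood progenitor genes, all tested, 1 was higher and 10 lower at 120 h (median −1.81) and 1 was higher and 9 lower at 144 h (median −1.13). Called at 120 h were a rise of Lmo2 (1.76), and falls of Tek (−3.40) and Kdr (−2.98); at 144 h a rise of Lmo2 (1.14), and falls of Pecam1 (−2.57) and Tek (−2.45). Their sum was 3090 to 3604 in p53KO–emiRFP and 9328 to 10130 in WT–emiRFP cells at 144 h, without overlap, and none of them was at 0 in all 3 libraries of a group at 120 or 144 h. Of 12 cardiac and lateral plate genes, all tested, 4 were higher and 4 lower at 120 h (median −0.07) and 3 were higher and 5 lower at 144 h (median −0.47). Among them at 120 h were a rise of Foxf1 (1.66), and a fall of Bmp4 (−0.54); at 144 h falls of Gata4 (−1.20) and Bmp4 (−1.06). Their sum was 838 to 886 and 1062 to 1551 at 144 h, and again none was at 0 throughout a group. The part of these cell types in the differences of Sox17, Gata6 and Hhex was not tested.

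In WT–mCherry cells beside p53KO cells at 144 h, genes of the visceral and primitive endoderm list were called higher. All 17 tested genes had a log2 fold change above 0, with a median of 0.91, and 7 were called higher and 0 lower, against 16 and 0 with the replicate block, under which 37.2% of all genes were called. The named genes were Sox7 (1.27) and Amn (1.10), Amn being a partner of cubilin. Without replicate 1, the replicate with the most emiRFP RNA in the mCherry sort, the median was 0.89 and 0 genes were called, without replicate 2 it was 2, and with emiRFP RNA subtracted 8. The sum of the list was 50720 to 129500 beside p53KO and 40930 to 69740 normalized counts beside WT cells, which overlap. At 120 h 2 genes were called higher and 0 lower, Lama1 (0.68) and Col4a2 (0.43).

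Of the definitive endoderm and gut genes, 4 were higher and 1 lower at 120 h (median 0.14) and 8 were higher and 2 lower at 144 h (median 0.43) beside p53KO cells. The named changes at 120 h were rises of Mixl1 (1.04) and Cer1 (0.96), and a fall of Eomes (−0.88); at 144 h rises of Cer1 (3.92) and Ihh (1.66), and a fall of Cxcr4 (−0.90). Without replicate 1, 2 were called higher and 1 lower at 144 h. Of the node and notochord genes, 3 were higher and 1 lower at 120 h (median 0.26) and 2 were higher and 3 lower at 144 h (median −0.07). These included at 120 h rises of T (0.90) and Cdx2 (0.64), and a fall of Col2a1 (−0.45); at 144 h rises of Cdx2 (1.85) and T (1.24), and falls of Sox9 (−1.69) and Col2a1 (−0.79). T, Cdx2 and Cer1 were also higher in p53KO–emiRFP cells at 144 h, and with emiRFP RNA subtracted the log2 fold change at 144 h was 0.22 for T (edgeR adjusted p = 0.752), 1.08 for Cdx2 (4.3e-04) and 2.42 for Cer1 (0.0417), and at 120 h 0.70 for Mixl1 (0.178).

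Of the hedgehog genes, 0 were higher and 2 lower at 120 h (median −0.16) and 1 was higher and 9 lower at 144 h (median −0.27) beside p53KO cells. At 120 h the list gave a fall of Gli2 (−0.37); at 144 h a rise of Ihh (1.66), and falls of Boc (−0.96) and Gas1 (−0.81). Ihh, a hedgehog ligand of gut and visceral endoderm, was thus higher in WT–mCherry cells beside p53KO cells and lower in p53KO–emiRFP cells at 144 h. Of the BMP list, 2 were higher and 0 lower at 120 h (median 0.09) and 2 were higher and 5 lower at 144 h (median −0.14). At 120 h the list gave rises of Tll2 (1.15) and Cer1 (0.96); at 144 h a rise of Cer1 (3.92), and falls of Fst (−1.53) and Bmp1 (−0.60). With emiRFP RNA subtracted Tll2 at 120 h was 1.02 (edgeR adjusted p = 0.00268). Of the floor plate genes, 0 were higher and 1 lower at 120 h (median 0.12) and 0 were higher and 4 lower at 144 h (median −0.65). At 120 h it was a fall of Lmx1b (−0.76); at 144 h falls of Slit1 (−1.54) and Ntn1 (−0.76). Of the endothelial and blood genes, 2 were higher and 5 lower at 120 h (median −0.55) and 2 were higher and 6 lower at 144 h (median −0.34). At 120 h the list gave rises of Lmo2 (1.04) and Flt1 (1.03), and falls of Kdr (−1.71) and Etv2 (−1.01); at 144 h rises of Flt1 (1.71) and Sox7 (1.27), and falls of Kdr (−1.29) and Etv2 (−1.09). Of the cardiac and lateral plate genes, 0 were higher and 1 lower at 120 h (median 0.08) and 2 were higher and 1 lower at 144 h (median 0.45). At 144 h it was a rise of Gata4 (1.16), and a fall of Mef2c (−1.25). Sox7 stands in the endothelial and the visceral endoderm list, Ihh, Cer1, Gata4 and Bmp4 also in 2 lists each. The sum of the endothelial list was 7706 to 9330 beside p53KO and 7549 to 8356 normalized counts beside WT cells at 144 h, and that of the cardiac list 1172 to 2067 and 876 to 1351; their part in the rise of Sox17 was not tested.

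**Figure D5:**
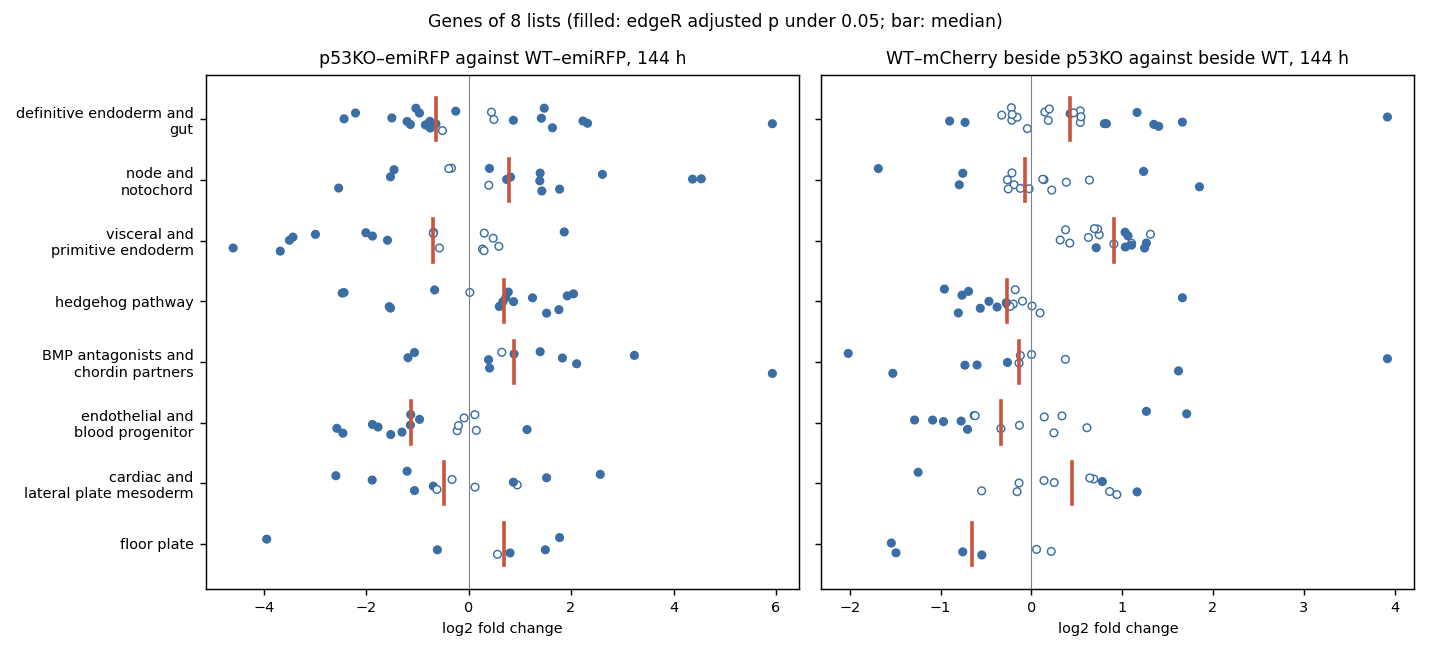
Each point is the log2 fold change of a listed gene at 144 h, for p53KO–emiRFP against WT–emiRFP cells (left) and for WT–mCherry cells from WT + p53KO against WT + WT gastruloids (right), filled where the edgeR adjusted p is under 0.05, with the list median as a bar. The visceral and primitive endoderm genes spread from under −4 to 1.87 on the left, and all 17 lie above 0 on the right.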

How the data were processed

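The authors deposited raw read counts per gene for all 69 bulk RNA libraries. Per their methods, reads were trimmed with Trim Galore 0.6.7, aligned to GRCm38.p6 and counted with STAR 2.7.11b, and the strand used in counting is not given in the sources used here. The counts of 55367 gene symbols were used as deposited, and 26722541 to 72981570 counts per library set the precision of low genes such as Noto and Shh. The members, lists and tests were chosen with earlier results of these data known. Samples were grouped by the labels.

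Each time point was fitted with edgeR 4.0.16 (R 4.3.3) on its 12 libraries (9 at 0 h) by the quasi-likelihood test, with median-of-ratios size factors over all 69 libraries, edgeR's filter on low counts and Benjamini-Hochberg adjustment over all genes that passed it. Consecutive times were compared in 1 fit of 23 groups. The steps were tested on simulated counts. Settings changed one at a time were the normalization (TMM), the low-count filter (none), the tool (DESeq2 1.42.0), the fit (all groups in 1), a block for the replicate number, leaving out each replicate, and subtraction of emiRFP RNA, estimated from H2bc14 of the same-numbered emiRFP library. Named were the 8 members throughout, Trp53 and H2bc14 as checks, up to 2 rises and 2 falls of each list at 120 and 144 h among called genes whose mean log2 CPM reached 1, and the 3 genes most like each member. Among the genes picked, 1 is not reported here.

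The replicate numbers of the labels are taken to mark the separate experiments of the methods. The departures from the group mean, over 14078 genes, of libraries with the same number correlated with r over 0.1 in every pair of p53KO–emiRFP and WT–emiRFP libraries at each time (lowest 0.118) and, for the neighbour comparison, at each time but 120 h (lowest 0.0717). Between the WT clones it was lower at 0 h (0.0865) and 72 h (0.0377). The block's values are given beside results where such pairing held and a call changed.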

Additional observations from a re-analysis of the deposited data

Results flagged for a closer look

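The emiRFP minus mCherry difference in WT + p53KO gastruloids less that in WT + WT gastruloids was past the threshold of edgeR's test for 4 members, each an effect that differs between the p53KO–emiRFP cells and their WT–mCherry neighbours. For Sox17 it was −2.21 at 120 h and −1.997 at 144 h on the log2 scale, and for Gata6 −1.18 and −1.82. For Chrd it was 1.24 at 120 h and 1.53 at 144 h, and for Hhex −0.63 at 96 h and −1.27 at 144 h. Of 8 members tested at 96 h, 0 were called higher and 1 lower, against 13.0% of all genes. Of 7 at 120 h these were 1 and 2, against 33.2%, and of 7 at 144 h 1 and 3, against 62.0%. The calls of Sox17 and Gata6 were lost without replicate 1, and that of Hhex at 96 h was lost without any 1 replicate. At 120 and 144 h Sox17 and Gata6 were lower in p53KO–emiRFP cells than in their parent clone and higher in WT–mCherry cells beside p53KO than beside WT cells in all 3 same-numbered pairs of each comparison. Of these neighbour differences only that of Sox17 at 144 h was called without the block. At 120 h the same-numbered libraries of replicate 1 correlated little in the neighbour comparison (r 0.0717).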

How the results depend on the processing

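No called value changed sign in any alternative. Of 69 called values of members, 2 were lost with TMM, 2 without the low-count filter, 2 with DESeq2 and 0 with the replicate block, and 21, 14 and 9 without replicates 1, 2 and 3, respectively. The fit of all 23 groups covers 24 of the called values, of which 3 were lost. Members called in p53KO–emiRFP against WT–emiRFP cells numbered 9 to 14 without each replicate, against 15. In WT–mCherry cells by neighbour 1 was called, against 2 with TMM, 9 without the filter, 2 with all 23 groups in 1 fit, 2 with emiRFP RNA subtracted and 0 to 2 without each replicate. Between the WT clones 0 were called, against 1 without the filter, 1 with DESeq2 and 0 to 1 without each replicate. For the emiRFP minus mCherry difference 8 were called, against 14 without the filter and 3 to 7 without each replicate; without replicate 1 it was 3. The cause was not tested. With the replicate block the counts were 21 in p53KO–emiRFP against WT–emiRFP cells, 11 by neighbour, 3 between the clones and 18 for the difference of differences, while the share of all genes called under the block rose too, by neighbour at 96 h from 3.93% to 20.9% and between the clones at 120 h from 1.24% to 10.8%. In comparisons where r was not over 0.1 in every same-numbered pair, the block added Sox17, Foxa2, Gata6 (higher) and Foxa1 (lower) by neighbour and Foxa2 (lower) and Foxa1 (higher) for the difference of differences at 120 h, Sox17, Foxa2 (higher) and Noto (lower) in p53KO–emiRFP cells from 120 to 144 h, and Chrd between the clones at 72 h. By neighbour at 120 h, r was 0.0717, 0.626 and 0.577 in replicates 1 to 3. Noto and Shh at 0, 48 and 72 h had too few counts for the tests within these times.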
